A study of Mus musculus with 3 samples.

Results

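Glutathione transferases couple the tripeptide glutathione to reactive, electrophilic molecules, and many of their genes answer to NRF2, a transcription factor encoded by Nfe2l2. In unstressed cells KEAP1 delivers NRF2 to a CUL3 ubiquitin ligase for degradation. Electrophiles and oxidants block that step, after which NRF2 pairs with small MAF proteins on antioxidant response elements and raises genes for glutathione synthesis, conjugation and quinone reduction. The 10 genes described here were taken by symbol from a table of 55471 features: the transferase genes Gsta4, Gstm1, Gstm2, Gstp1, Gsto1 and Gstt1, both subunits of glutamate-cysteine ligase (Gclc and Gclm), glutathione reductase (Gsr) and the quinone reductase gene Nqo1. All 10 were found, each as 1 row, and all 10 reached a mean of 1 TPM (a level corrected for gene length and library size) over the 3 libraries, as did 14527 features in all.

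The data come from polyadenylated RNA of 3 cultured populations of JC, a mouse mammary carcinoma line labelled as epithelial-like and of WT genotype throughout. JC-WT carries the treatment label WT. JC-P cells came, by the protocol, from tumours of the mammary fat pad at day 14, although their treatment label reads metastasis. JC-M3 cells, also labelled metastasis, were taken at day 28 from lung lesions and had passed 3 such rounds, each begun by injecting cells of JC-P descent into a tail vein. All were grown in DMEM with serum and antibiotics, and the sources do not name the sex, strain, age or number of the mice. Where 3 values follow each other below, they belong to JC-WT, JC-P and JC-M3 in that order. With 1 library per population there was no replicate spread and no test, JC-M3 stands for a single derived line, and each ratio describes a pair of libraries. Between 18093400 and 23386400 reads per library were recovered from the TPM values. The epithelial label rests on few markers: Krt8 stood at 1503, 1873 and 681 TPM and Krt18 at 48.6, 48.5 and 18.4 TPM, whereas Epcam was at 0 in all 3 libraries and Cdh1 at 0, 0.832 and 0.669 TPM. In such bulk samples, fewer cells of a type and less RNA per cell cannot be told apart.

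Of the 10 genes, Gsta4 differed most between the 3 populations. It encodes an alpha class transferase known for clearing hydroxynonenal, an aldehyde formed when membrane lipids are oxidised. Gsta4 had a level of 243 TPM in JC-WT, of 525 in JC-P and of 50.7 in JC-M3, from 1649, 4370 and 440 reads. JC-P was thus the high library and JC-M3 the low one, with a 10.4-fold span. Among the 14527 features, 99.0% had a smaller span on the log2 scale of TPM + 0.5, which was used for all ratios and understates the differences of low genes.

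**Figure D1:**
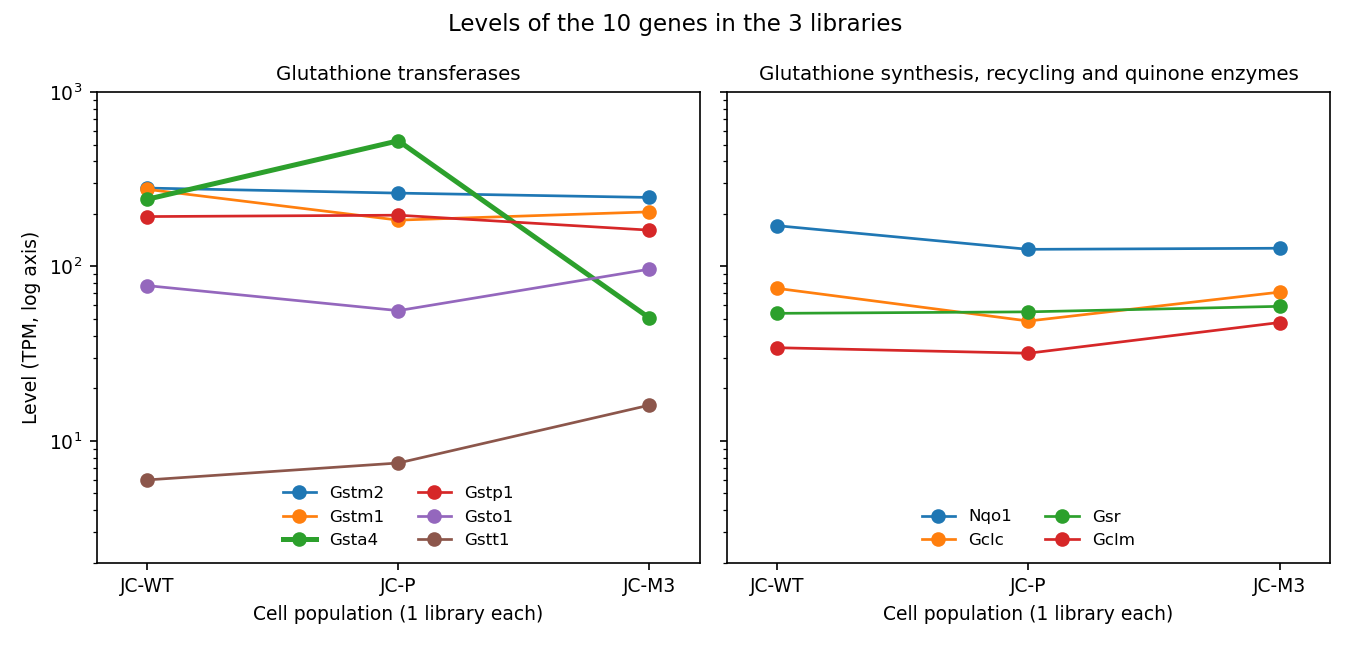
Levels of the 10 genes in TPM (log axis), with 1 point per library and lines joining the points of a gene; the left panel holds the 6 transferases, the right panel Nqo1, Gclc, Gsr and Gclm. Gsta4 (thick line) goes from 243 to 525 and 50.7 TPM, while Gstm2 lies between 249 and 281 TPM in all 3 libraries.

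The log2 ratio of Gsta4 was 1.11 for JC-P against JC-WT, with a 95% exact counting interval of 1.03 to 1.20. For JC-M3 against JC-P it was -3.36 (-3.52 to -3.23), and for JC-M3 against JC-WT -2.25 (-2.42 to -2.11). These intervals, like those below, belong to the plain TPM ratio and cover counting error only, not variation between cultures. Counted from the most abundant of the 10 genes, Gsta4 took rank 3, then 1, then 8. Gsta4 lies on chromosome 9 (chr9:78182774-78209349, plus strand, GRCm38) beside other alpha class genes, so its sequence was checked for reads that could belong to them. None of the 1217 different 50-base windows of its annotated transcripts occurs in a transcript of another gene. The coding starts of Gsta4 and its neighbour Gsta1, bases 1 to 90 of the lowest-numbered coding transcript of each in GENCODE M21, are shown to make this visible, with capitals at the 23 positions where the pair differs:
Gsta4: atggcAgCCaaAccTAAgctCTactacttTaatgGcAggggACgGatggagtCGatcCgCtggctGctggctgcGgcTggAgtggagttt
Gsta1: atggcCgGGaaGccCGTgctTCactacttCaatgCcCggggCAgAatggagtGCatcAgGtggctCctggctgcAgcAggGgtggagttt
Over the aligned coding sequence the pair is 66.3% identical, and the longest identical run is 13 bases.

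The mu class genes Gstm1 and Gstm2, whose enzymes conjugate a broad range of electrophiles, differed from each other in how level they were. Gstm2 stood at 281, 263 and 249 TPM. Its span of 1.13-fold was larger than that of only 10.8% of the features. Gstm1 stood at 277, 184 and 206 TPM, with JC-WT the high library. The log2 ratio of Gstm1 for JC-P against JC-WT was -0.58 (-0.68 to -0.50), and for JC-M3 against JC-WT -0.43 (-0.52 to -0.34). The pair was level in JC-WT, where the TPM of Gstm1 was 0.983 times that of Gstm2 (0.928 to 1.04). In JC-P the ratio was 0.700 (0.660 to 0.743) and in JC-M3 0.827 (0.781 to 0.875), so Gstm1 lay below Gstm2 beyond counting error in both.

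Gstm1 (chr3:108012255-108017973) and Gstm2 (chr3:107981702-107986453) lie on the minus strand of the same cluster. Reads of 50 bases or more can mostly be told apart between them, as the first 90 coding bases show, with capitals at the 15 positions where the pair differs:
Gstm1: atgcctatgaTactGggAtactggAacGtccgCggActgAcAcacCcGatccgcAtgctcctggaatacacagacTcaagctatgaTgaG
Gstm2: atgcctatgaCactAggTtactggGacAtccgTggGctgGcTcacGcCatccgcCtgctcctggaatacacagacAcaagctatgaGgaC
Their coding sequences are 85.9% identical, with a longest identical run of 60 bases. Of the 50-base windows of Gstm1, 18.9% occur in other genes, most of them in the pseudogene Gstm2-ps1, so part of its level is uncertain. For Gstm2 the share is 5.65%. The counting intervals do not cover this, so the ratio of the pair within a library is uncertain as well. Of the other mu genes, Gstm5 stood at 59.0, 67.9 and 70.7 TPM and Gstm7 at 9.66, 5.51 and 8.83 TPM, while Gstm6 had 3, 2 and 2 reads and Gstm3 had 0 in each library. Gstm4, a gene of the cluster named after its values were seen, stood at 7.64, 15.7 and 6.40 TPM, with JC-P the high library as for Gsta4 (log2 0.99, 0.63 to 1.46, for JC-P against JC-WT and -1.23, -1.70 to -0.89, for JC-M3 against JC-P).

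Gstp1, the pi class transferase often abundant in tumour cells, differed little. It stood at 193, 197 and 161 TPM. The log2 ratio was 0.03 (-0.07 to 0.12) for JC-P against JC-WT, an interval that includes 0, and -0.28 (-0.38 to -0.19) for JC-M3 against JC-P. Its level is uncertain because its neighbour Gstp2 is a near copy: the coding sequences are 98.1% identical and 33.7% of the 50-base windows of Gstp1 occur in Gstp2. Gstp2 itself stood at 10.7, 4.24 and 6.42 TPM.

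Gsto1 and Gstt1 were highest in JC-M3, the library where Gsta4 was lowest. Gsto1, of the omega class, whose enzymes act as thiol transferases and dehydroascorbate reductases, stood at 77.6, 55.8 and 96.5 TPM. JC-P was its low library, and the log2 ratio for JC-M3 against JC-P was 0.78 (0.66 to 0.92). Gstt1, of the theta class, known for conjugating small halogenated compounds, was the least abundant of the 10 genes, at 5.97, 7.47 and 16.0 TPM. These levels rest on 49, 75 and 168 reads. The log2 ratio of Gstt1 was 0.30 (-0.22 to 0.87) for JC-P against JC-WT, 1.05 (0.70 to 1.51) for JC-M3 against JC-P and 1.35 (0.96 to 1.91) for JC-M3 against JC-WT. Both intervals for JC-M3 reach below a 2-fold difference. None of the windows of Gsto1 or Gstt1 occurs in other genes.

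Gstcd, named for a transferase-like C-terminal domain, stood at 18.8, 20.4 and 27.6 TPM and was not summed with the transferases. Over the 24 other listed genes named Gst, the level was 1210, 1369 and 917 TPM. Without Gsta4 the sums were 967, 843 and 866 TPM, so the low sum of JC-M3 against JC-P lay in that gene. Gsta4 made up 20.1%, 38.4% and 5.53% of the sum. Gstm2 took 23.3%, 19.2% and 27.1% and was the largest contributor in JC-WT and JC-M3. The 6 transferases described here held 89.1%, 90.1% and 85.0% of the sum.

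**Figure D2:**
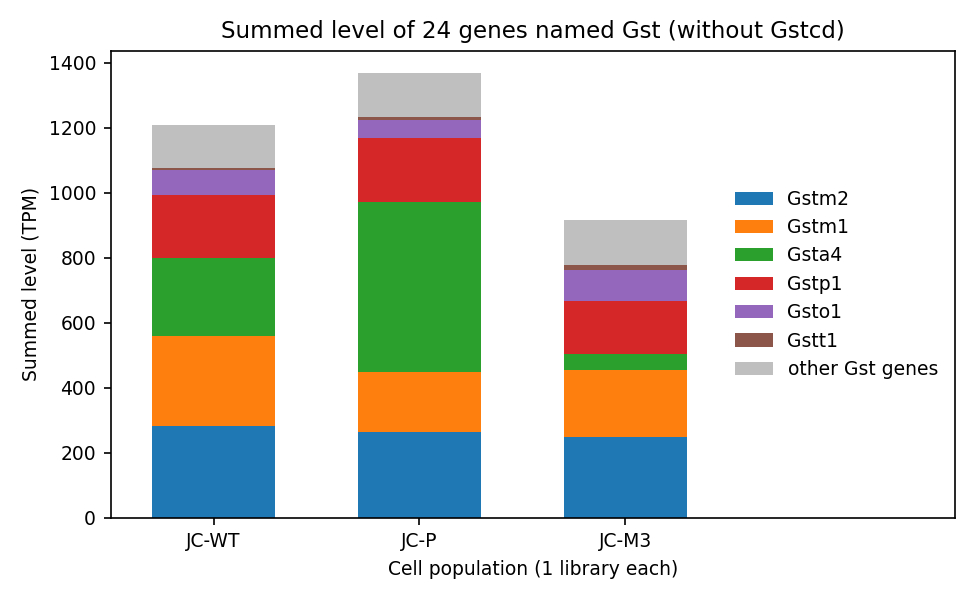
Summed level in TPM of 24 listed genes named Gst (without Gstcd) in each library, split into the 6 transferases described here and the rest (grey). The bars reach 1210, 1369 and 917 TPM, and the Gsta4 segment measures 243, 525 and 50.7 TPM.

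Glutathione synthesis begins with glutamate-cysteine ligase, in which the catalytic subunit Gclc sets the rate and the modifier subunit Gclm improves its affinity and eases feedback inhibition. Gclc (chr9:77754535-77794485) stood at 74.9, 48.6 and 71.3 TPM. JC-P was its low library, with log2 ratios of -0.62 (-0.73 to -0.51) for JC-P against JC-WT and 0.55 (0.44 to 0.66) for JC-M3 against JC-P. JC-M3 and JC-WT did not differ beyond counting error, at -0.07 (-0.17 to 0.03). Gclm (chr3:122245557-122270732) stood at 34.2, 31.8 and 47.7 TPM, and JC-M3 was its high library, at 0.58 (0.48 to 0.69) over JC-P. The TPM of Gclc was 2.19 times that of Gclm in JC-WT (2.03 to 2.36). The ratio was 1.53 in JC-P (1.41 to 1.66) and 1.49 in JC-M3 (1.40 to 1.59). The subunit ratio was thus higher in JC-WT than in the other two libraries, whose intervals overlap.

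Within the span of Gclm, the annotation also places the pseudogene Gm6061 on the same strand (92.0, 79.5 and 65.2 TPM) and the noncoding gene Gm17494 on the opposite strand (0.863, 0.596 and 2.15 TPM). No source used here names the strand setting of the counting, so reads of Gclm and Gm17494 cannot be told apart where they overlap. In all, 4.58% of the windows of Gclm occur in other genes. None of the windows of Gclc does.

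Glutathione reductase and the quinone reductase varied less. Gsr, which returns oxidised glutathione to its reduced form with NADPH, stood at 53.9, 54.9 and 59.1 TPM. Its span of 1.10-fold exceeded that of only 6.2% of the features, and the log2 ratio for JC-P against JC-WT was 0.03 (-0.11 to 0.16). Nqo1, which reduces quinones by a pair of electrons and is a widely used readout of NRF2, stood at 171, 125 and 127 TPM. JC-WT was the high library, at log2 -0.45 (-0.56 to -0.34) for JC-P against JC-WT. JC-P and JC-M3 lay within counting error of each other, at 0.02 (-0.09 to 0.13).

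**Figure D3:**
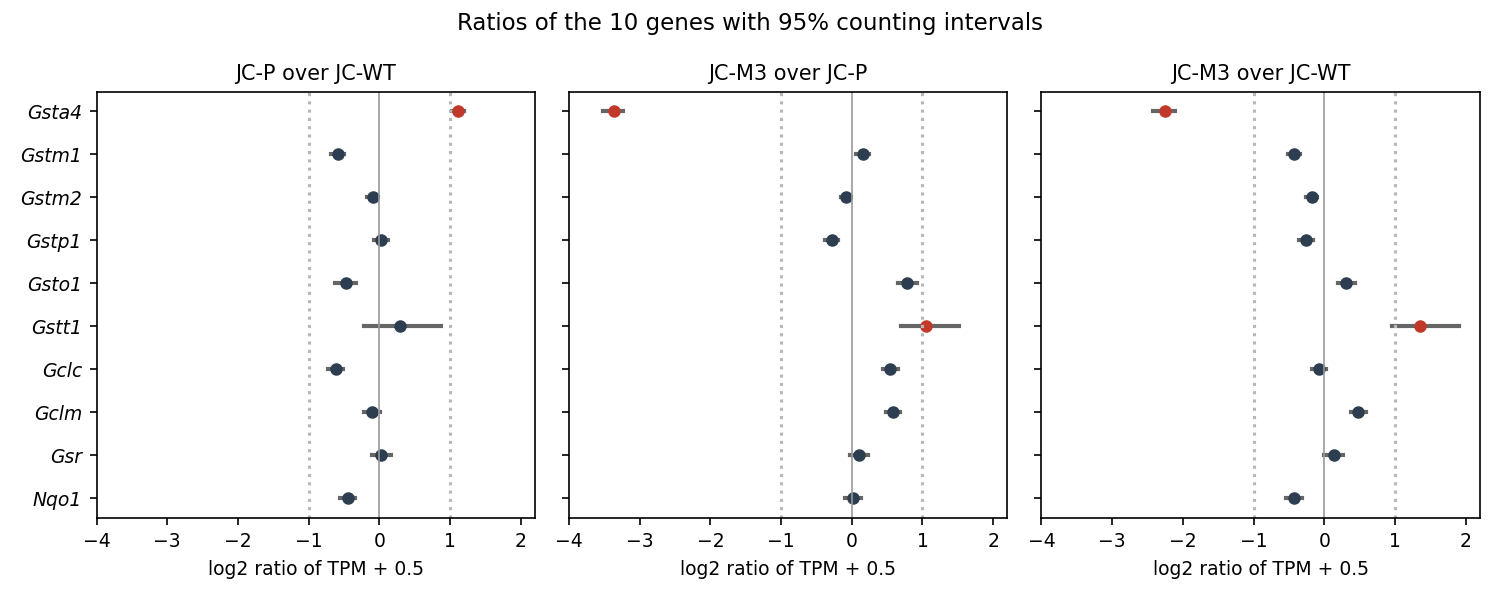
Log2 ratios of TPM + 0.5 of the 10 genes (points) with 95% counting intervals of the plain TPM ratio (bars) for each comparison; dotted lines mark 2-fold differences and red points lie past them. Red are Gsta4 in all 3 panels and Gstt1 in both panels of JC-M3.

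Read over the 10 genes, few passed a 2-fold difference. For JC-P against JC-WT 1 gene was at least 2-fold higher (Gsta4) and 0 lower, beside 4.76% of all 14527 features higher and 2.33% lower. For JC-M3 against JC-P 1 was higher (Gstt1) and 1 lower (Gsta4), beside 3.82% and 5.38%. The same genes stood at least 2-fold apart for JC-M3 against JC-WT, beside 6.14% higher and 5.27% lower. With so few genes, these counts do not set the group apart from the other features. The median log2 ratio of the 10 genes was -0.10, 0.13 and -0.12 in the same order, against 0.010, -0.0076 and 0.0016 over all features. The 3 comparisons share libraries, so they are not independent of each other. Some differences below 2-fold exceeded counting error within a pair of libraries, such as those of Gstm1 and Gclc for JC-P against JC-WT. The share of all features that did so was not computed.

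The 15 measured regulators of NRF2 mostly stayed within 2-fold, as did most features. Sqstm1 and Rxra had no counting interval, as whole reads were not recovered in some or all libraries. For some of the other measured regulators the interval left out 0. The share of all features for which it did was not computed. Nfe2l2 stood at 155, 202 and 173 TPM, at log2 0.38 (0.32 to 0.45) for JC-P against JC-WT. Keap1 stood at 77.6, 80.0 and 77.3 TPM. Bach1, which encodes a repressor that competes with NRF2 for its sites, stood at 26.7, 30.0 and 24.5 TPM. Of the 15 regulators, 0 lay 2-fold apart for JC-P against JC-WT, beside 4.76% of all features higher and 2.33% lower. For JC-M3 against JC-WT it was also 0, beside 6.14% and 5.27%. For JC-M3 against JC-P 1 did, beside 3.82% and 5.38%: the small MAF gene Maff, at 50.7 and 102 TPM (log2 1.00, 0.89 to 1.13). With so few genes, these counts do not set the regulators apart from the other features. The other small MAF genes went apart, with Mafk at 34.6, 27.7 and 48.1 TPM and Mafg at 145, 139 and 95.6 TPM.

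Of 29 other measured NRF2 targets, more stood lower than higher in JC-M3. For JC-M3 against JC-WT, 20 of 29 had a log2 ratio below 0, 6 were at least 2-fold lower and 1 higher, with a median of -0.39, beside 5.27% and 6.14% of all features and a median of 0.0016. For JC-P against JC-WT 2 were lower and 1 higher (median -0.19), beside 2.33% and 4.76%, and for JC-M3 against JC-P 2 and 1 (median -0.32), beside 5.38% and 3.82%. Idh1, the cytosolic NADP-linked isocitrate dehydrogenase, stood at 579, 505 and 103 TPM, or log2 -2.28 (-2.36 to -2.22) for JC-M3 against JC-P. Aldh3a1, an aldehyde dehydrogenase, stood at 167, 102 and 37.1 TPM, and the aldo-keto reductase gene Akr1c13 at 23.6, 10.9 and 5.49 TPM, although 24.2% of its windows occur in other genes. Hmox1, the haem-degrading heme oxygenase, stood at 264, 136 and 105 TPM. In each of these 4 genes JC-WT was the highest library and JC-M3 the lowest. The carboxylesterase gene Ces1g rested on 43, 2 and 13 reads, and its log2 ratio for JC-P against JC-WT was -2.62 with an interval of -7.81 to -2.78. At 3.35, 0.127 and 0.79 TPM, it reached a mean of 1 TPM through JC-WT, the library where it is high. Ces1g is also the 1 gene counted higher in JC-M3 than in JC-P, below 1 TPM in both. The counts lower than JC-WT and this count, which all include Ces1g, are thus a description only.

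Other targets in wide use as NRF2 readouts differed in their order, and Srxn1 shared that of the 4 genes with smaller differences. Txnrd1, thioredoxin reductase, stood at 120, 119 and 170 TPM, highest in JC-M3 (log2 0.51, 0.47 to 0.57, over JC-P). Srxn1, sulfiredoxin, stood at 220, 190 and 181 TPM (log2 -0.28, -0.35 to -0.21, for JC-M3 against JC-WT). Slc7a11, the cystine importer that supplies cysteine for glutathione, stood at 5.54, 5.89 and 4.12 TPM. The carbonyl reductase gene Cbr3 was lowest in JC-WT, at 5.50, 17.5 and 14.6 TPM (log2 1.58, 1.14 to 2.23, for JC-P against JC-WT). Gclm and Txnrd1 were thus highest in JC-M3, Nqo1, Hmox1 and Srxn1 in JC-WT, and Gsta4 in JC-P. JC-P and JC-M3 lay within counting error of each other for Cbr3.

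RefSeq promoter windows (GRCm38.p6, 250 bases before to 50 after a start) matched 7 of the 10 genes, without Gsta4, Gclc and Gsr. The core letters of the antioxidant response element, TGACNNNGC on either strand, occurred in 1 of the 7 genes, Gclm, and in 12.4% of all 32851 windows. Among the other NRF2 targets 8 of 27 genes with a window held it. Some genes have more than 1 window, with 8 windows for the 7 genes and 35 for the 27. Counts of genes are thus not directly comparable with the share of windows. The 8 genes with a match had no shared order of levels: Txnrd1 and Pgd were highest in JC-M3, Srxn1 and Abcc4 in JC-WT, and G6pdx in JC-P. The top libraries of the rest lay within counting error. These were JC-M3 and JC-WT for Prdx1 (log2 0.03, -0.01 to 0.07) and JC-M3 and JC-P for Me1 (-0.01, -0.09 to 0.07). For Ugdh the interval included 0 in each comparison. The match of Gclm is shown with that of Txnrd1 as an example of the other targets, with the match in capitals. They read on the gene's own strand, where the motif appears as its reverse complement, and neither overlaps TGACTCA or TGAGTCA, the letters bound by AP-1:
Gclm, chr3:122245398-122245456, plus strand, match beginning 134 bases before the start: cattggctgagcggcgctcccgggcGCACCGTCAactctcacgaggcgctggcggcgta
Txnrd1, chr10:82859089-82859147, plus strand, match beginning 92 bases before 1 of its starts: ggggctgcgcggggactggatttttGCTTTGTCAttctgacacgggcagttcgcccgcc
A match of letters is a description of the window, and elements farther from the start were not searched.

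Among 15 other measured transferases and microsomal enzymes of the MAPEG family, JC-M3 had 4 at least 2-fold lower and 1 higher than JC-WT, beside 5.27% and 6.14% of all features. The lower genes include Gsta1 and Gsta5, each on 1 read in JC-M3 and sharing windows, and for Gsta5 the interval of this comparison includes 0 (-8.46 to 0.10). The microsomal transferases Mgst1 and Mgst3, which protect membranes from lipid peroxides, were lowest in JC-M3. Mgst1 stood at 44.6, 48.7 and 15.6 TPM (log2 -1.61, -1.87 to -1.41, for JC-M3 against JC-P) and Mgst3 at 119, 87.9 and 45.8 TPM. Gstk1, the mitochondrial and peroxisomal kappa class transferase, was highest in JC-M3, with 2, 20 and 62 reads (log2 3.14 for JC-M3 against JC-WT, interval 2.69 to 7.68). Gstt4 had 9, 3 and 13 reads, and its ratio for JC-P against JC-WT had an interval of -4.40 to 0.13. For JC-P against JC-WT 2 of the 15 were lower and 1 higher, beside 2.33% and 4.76%, and for JC-M3 against JC-P 4 and 2, beside 5.38% and 3.82%. The genes lower in JC-M3 than in JC-P include Gsta5, which reached a mean of 1 TPM through JC-P, the library where it is high.

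Of 20 other measured genes of glutathione synthesis, salvage and use, most lay within 2-fold, as did most of all features. The count was 20 for JC-P against JC-WT, 19 for JC-M3 against JC-P and 18 for JC-M3 against JC-WT. Past 2-fold were 0 higher and 0 lower, then 1 and 0, then 1 and 1. Of all features, 4.76% were higher and 2.33% lower, then 3.82% and 5.38%, then 6.14% and 5.27%. With so few genes, these counts do not set the list apart from the other features. Gss, which completes the tripeptide, stood at 18.0, 15.1 and 11.1 TPM. Gpx4, the glutathione peroxidase that reduces lipid peroxides in membranes, stood at 708, 742 and 657 TPM, and 34.7% of its windows occur in a pseudogene. Chac1, which degrades glutathione, stood at 105, 73.2 and 46.3 TPM, or log2 -1.17 (-1.34 to -1.03) for JC-M3 against JC-WT. Cth, cystathionine gamma-lyase, which makes cysteine from methionine, stood at 7.28, 7.91 and 18.5 TPM (log2 1.29, 1.04 to 1.67, for JC-M3 against JC-WT). Among 12 other aldehyde-clearing enzymes 1 was at least 2-fold lower in JC-M3 than in JC-P and JC-WT, beside 5.38% and 5.27% of all features. It was Aldh3a2, the fatty aldehyde dehydrogenase, at 133, 143 and 60.5 TPM. Like Gsta4 it was highest in JC-P and lowest in JC-M3.

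**Figure D4:**
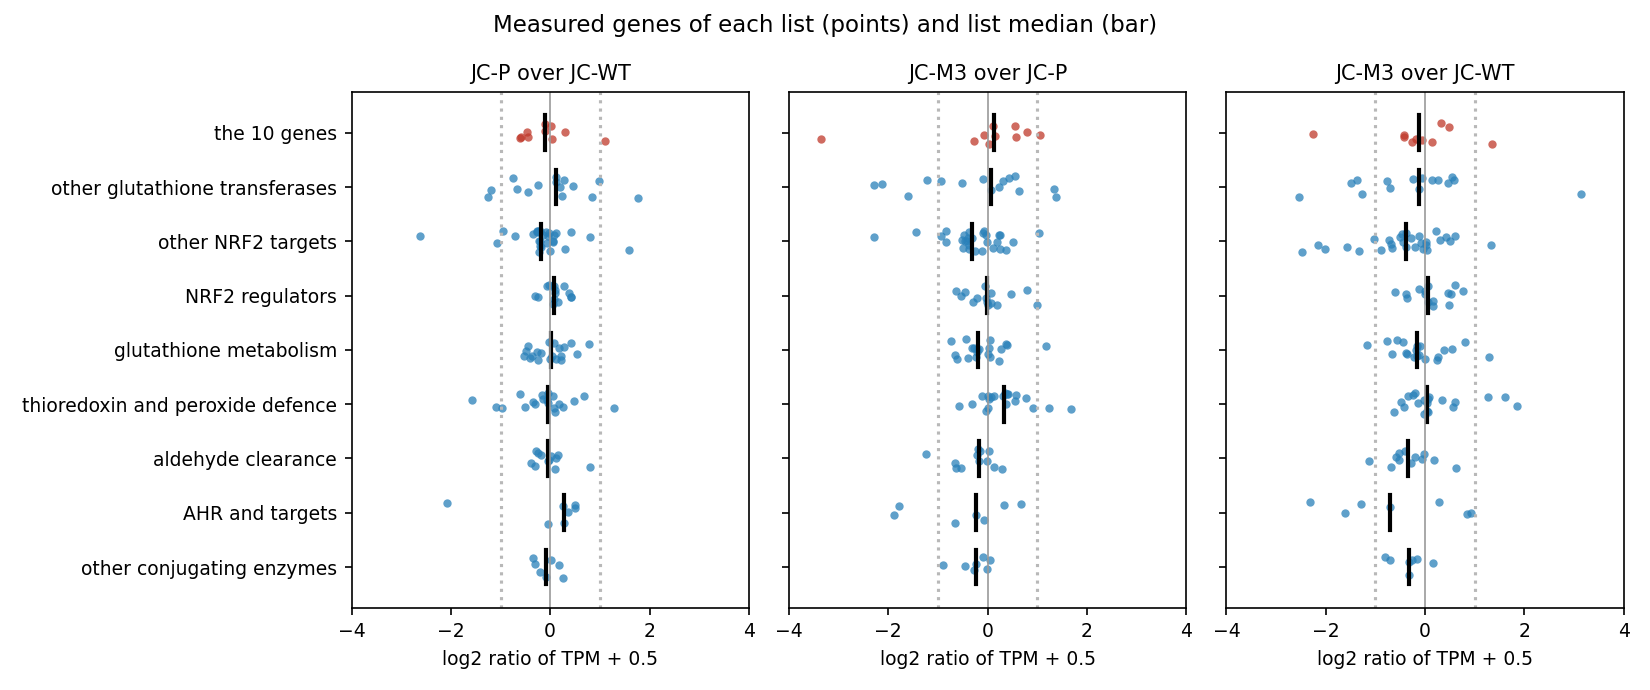
Log2 ratios of TPM + 0.5 of the measured genes (points) of each list for the 3 comparisons, with list medians as black bars, dotted lines at 2-fold and random vertical spread of points for legibility. The 10 genes are red; the point far to the left for JC-M3 against JC-P is Gsta4 at -3.36, and the medians of the other NRF2 targets are -0.19, -0.32 and -0.39.

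The pattern of Gsta4 was next compared with its neighbours on chromosome 9, a step added after its values were seen. Within 500 kb on each side 13 other features were measured. For JC-M3 against JC-P 4 of them were at least 2-fold lower and 0 higher, beside 5.38% and 3.82% of all features. This count is a description only, since Gsta5 reached a mean of 1 TPM through JC-P, the library where it is high, and Dppa5c nearly so. The 4 were Cilk1, Gsta1, Dppa5c and Gsta5. Cilk1, a kinase gene, lies 10.7 kb before Gsta4 (9.92 and 4.20 TPM). On the other side of Gsta4 lie Gsta1, Dppa5c and Gsta5, at distances of 21.3, 62.6 and 80.6 kb. The last 3 rested on few reads, with 17 and 1 for Gsta1, 12 and 1 for the pseudogene Dppa5c and 16 and 1 for Gsta5 in JC-P and JC-M3. Gsta1 and Gsta5 are 97.0% identical in coding sequence, and 90.5% and 49.4% of their windows occur in other genes, so their reads are uncertain. For JC-P against JC-WT the interval of each of these 4 included 0, with log2 0.11 for Cilk1 and -0.25 for Gsta1. The ratio was 1.45 for Dppa5c and 0.84 for Gsta5. Of the 13 features, 2 were at least 2-fold higher in this comparison and 0 lower, beside 4.76% and 2.33% of all features. Other features of the window differed in pattern, both near Gsta4 and farther out. Fbxo9, 73.7 kb away and so nearer than Gsta5, stood at 30.2, 30.2 and 31.9 TPM. Elovl5 stood at 149, 154 and 143 TPM, and Gclc, 388.3 kb away, was lowest in JC-P. Slc17a5, 327.1 kb away, had the order of Gsta4 with smaller differences, at 10.4, 13.9 and 8.68 TPM (log2 0.40, 0.16 to 0.67, for JC-P against JC-WT and -0.65, -0.93 to -0.43, for JC-M3 against JC-P). JC-M3 and JC-WT lay within counting error of each other for Slc17a5 (-0.25, -0.55 to 0.02). Cd109, 406.2 kb away, was lowest in JC-WT and highest in JC-M3, at 1.92, 5.05 and 7.18 TPM. Rn7sk, a small nuclear RNA gene 7.1 kb from Gsta4 and nearer than Cilk1, stood at 52.9, 35.9 and 40.5 TPM. It was not lower in JC-M3 than in JC-P (log2 0.17, -0.275 to 0.63).

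**Figure D5:**
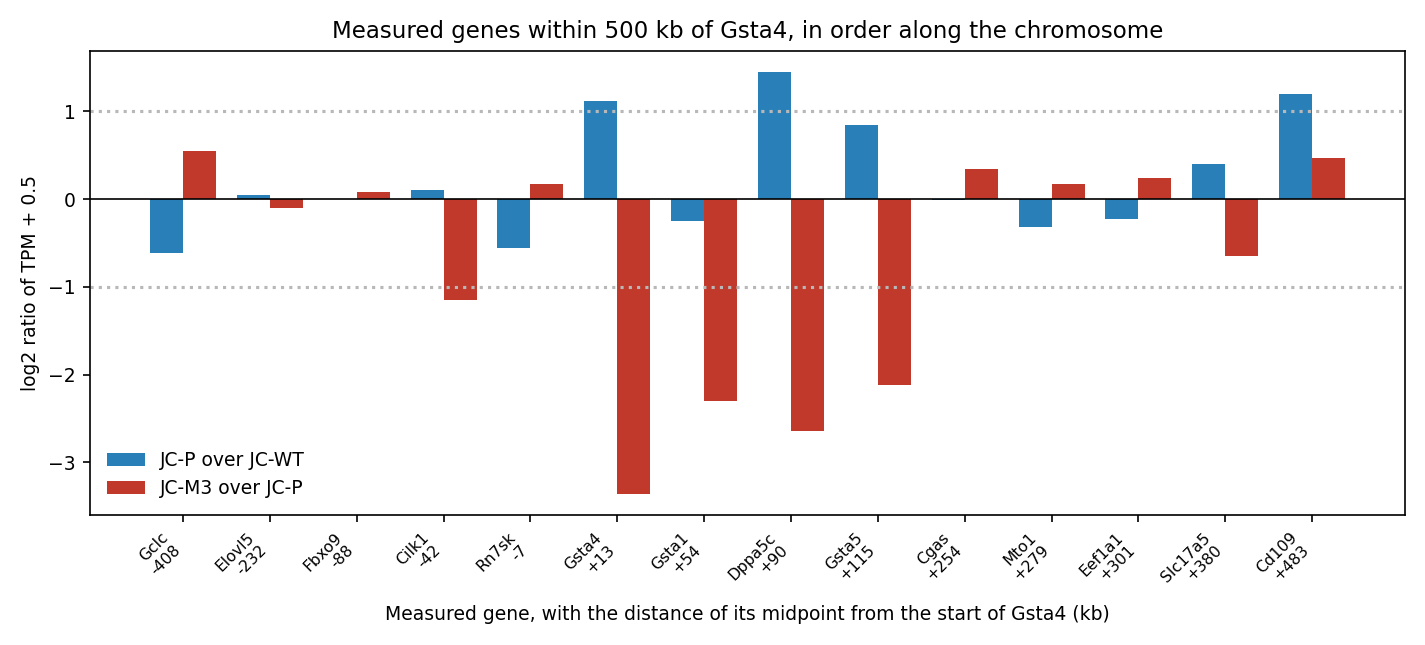
Log2 ratios of TPM + 0.5 for JC-P against JC-WT (blue) and JC-M3 against JC-P (red) of Gsta4 and the 13 other measured features within 500 kb, in chromosome order, with the distance of each midpoint from the start of Gsta4 in kb. Cilk1, Gsta1, Dppa5c and Gsta5 share the lower value in JC-M3, with Gsta1, Dppa5c and Gsta5 on 1 read each there.

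The genes most like Gsta4 over the 3 libraries, by distance in the pair of log2 ratios JC-P against JC-WT and JC-M3 against JC-P, were Gas6, Ly6c1, Padi1, Slc38a3 and Itgbl1, searched among the 9474 features that reached a mean of 10 TPM, less those with predicted and clone names. Gas6, a ligand of TAM receptors, was the nearest at a distance of 0.20 and stood at 12.2, 23.9 and 2.06 TPM. Padi1, a peptidylarginine deiminase, stood at 25.4, 50.8 and 5.40 TPM. Itgbl1 was the farthest of the 5, at 0.66, with 22.3, 55.8 and 7.996 TPM. With 3 libraries such likeness is a description of these values only.

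Markers of other cell types were read beside these levels. Of 10 endothelial markers, 1 to 2 reached 1 TPM, with summed levels of 8.02, 35.9 and 3.11 TPM, which is the order of Gsta4. The JC-P sum came from Cdh5 (17.7 TPM) and Plvap (17.8 TPM), while Kdr and Cldn5 were at 0 in each library and Pecam1 at 0.150, 0.244 and 0.234 TPM. Fibroblast markers summed to 222, 418 and 1093 TPM, with Thy1 and Lum at 0 in each. Most of that sum was Col1a1, at 132, 261 and 949 TPM. Lower in JC-M3 than in JC-P were Pdgfra, at 34.1, 47.6 and 20.1 TPM, Col3a1, at 3.99, 46.0 and 8.76 TPM, and Dpt. Higher, beside Col1a1 and Col1a2, were Dcn, at 1.24, 14.0 and 22.5 TPM, and Pdgfrb, at 48.7, 46.5 and 87.9 TPM. Of 7 measured 3 were at least 2-fold lower and 2 higher in that comparison, beside 5.38% and 3.82% of all features. For JC-M3 against JC-WT 4 of the 7 were at least 2-fold higher and 1 lower, beside 6.14% and 5.27%. Col1a2, counted higher in both comparisons, reached a mean of 1 TPM through JC-M3, the library where it is high. Myeloid markers summed to 15.7, 9.07 and 10.8 TPM, with Ptprc, Itgam and Adgre1 at 0. Markers of hepatocytes, a cell type rich in transferases, summed to 0.452, 1.11 and 0.0796 TPM, with Alb at 0, and those of lung epithelium to 1.70, 4.47 and 3.53 TPM, with Sftpc and Scgb1a1 at 0. Lymphocyte markers summed to 0.256, 0 and 0.395 TPM and adipocyte markers to 0.166, 0.0515 and 0.0649 TPM. The part of the endothelial and fibroblast levels in the values of Gsta4 was not tested.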

How the data were processed

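The deposited table gives TPM for 55471 features in 3 libraries, 1 per population. The authors deposited TPM, reads scaled by gene length and by library, as the column names and totals show, per the file headers. FastQC 0.11.9, STAR 2.7.9a, featureCounts and the builds mm10 and GRCm38 are listed in the submitters' processing notes. No source used here states the annotation, the strand setting or the gene lengths.

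The exon union of each gene in GENCODE M21 gave a length for 55230 features. TPM times this length, divided by the value of 1 read, gave whole reads within 0.01 for 98.4%, 98.5% and 98.5% of features above 0 (JC-WT, JC-P, JC-M3). These gave exact conditional (Clopper-Pearson) 95% intervals. Reads without molecular identifiers are not independent molecules, so intervals cover counting error only. Ratios are log2 values of TPM + 0.5 among features whose mean reached 1 TPM, and 2-fold differences were counted without a test or p-value. Windows of 50 bases were compared with all annotated transcripts on both strands.

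The members, lists and rules were chosen with earlier results of these data known. Named were the 10 members, 9 fixed pathway genes, list genes past 2-fold (at most 3 each way per list and comparison) and the 5 genes nearest in pattern to Gsta4. Other genes named, such as Tiparp, Nqo2, Gstm5, Gstm7, Gstcd, Mafk, Mafg, Ahr, the promoter examples and the neighbours of Gsta4, were chosen after their values were seen. Of the lists, 8 were pathway lists and 8 marker lists. Alternatives varied the pseudocount, scaling, filter and threshold. Scripts were tested on simulated data. The software was Python 3.11.15 with scipy 1.17.1, pandas 2.3.3, numpy 2.4.6 and, for figures, matplotlib 3.10.9.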

Additional observations from a re-analysis of the deposited data

How the results depend on the processing

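The log2 ratios of the 10 genes in 3 comparisons were recomputed with pseudocounts of 0.1 and 2, with scaling by the median ratio and without mitochondrially encoded genes. All 120 values kept their sign and lay within their counting interval or between it and the reported value, with a largest shift of 0.18. No paired analysis was possible because each group has 1 library, and leaving out a library was not possible for the same reason. Trios of counts below belong to JC-P against JC-WT, then JC-M3 against JC-P, then JC-M3 against JC-WT. Among the 10 genes, the count higher in JC-M3 than in JC-P went from 1 to 0 with pseudocount 2, where Gstt1 falls below 2-fold. It went to 0, as did the count higher in JC-M3 than in JC-WT, with a mean of at least 10 TPM, which leaves Gstt1 out. At 1.5-fold it was 2, and 1 gene (Gclc) was lower in JC-P than in JC-WT. Over all 14527 features, 692, 555 and 892 were higher and 339, 781 and 766 lower. With pseudocount 2 the higher counts were 361, 328 and 522 and the lower 173, 443 and 471. With a mean of at least 10 TPM, which 9474 features reached, they were 156, 154 and 247 higher and 63, 269 and 293 lower. Without a filter on the mean, over 23744 features, they were 1288, 1024 and 1544 higher, and 647 and 1288 lower in the first 2 comparisons. At 1.5-fold they were 1737, 1456 and 2039 higher and 1003, 1934 and 1813 lower. The 8 pathway lists held 15, 29, 15, 20, 20, 12, 7 and 7 measured genes, with Sqstm1, listed more than once, counted once. Of these genes, 3, 7 and 6 were higher, beside 4.76%, 3.82% and 6.14% of all features. Lower were 7, 9 and 15, beside 2.33%, 5.38% and 5.27%. The count higher in JC-P than in JC-WT was 6 with pseudocount 0.1. The count higher in JC-M3 than in JC-P was 4 with pseudocount 2 and with a mean of at least 10 TPM. That filter gave 3, 4 and 9 lower. Such changes show only how far the counts move with the setting. At 1.5-fold 9, 12 and 13 were higher and 13, 21 and 30 lower. Gstt1, with 49 to 168 reads, is the member limited most by depth.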

Other observations

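Metallothionein genes, whose small cysteine-rich proteins bind zinc and other metals, were lowest in JC-P. In the order JC-WT, JC-P, JC-M3, Mt1 stood at 215, 71.7 and 170 TPM and Mt2 at 573, 270.2 and 867 TPM, although 45.9% of the windows of Mt2 occur in another gene. The log2 ratio of Mt1 was -1.58 (-1.73 to -1.45) for JC-P against JC-WT and 1.24 (1.10 to 1.38) for JC-M3 against JC-P. In the same list of 20 measured genes of thioredoxin, peroxide and metal defence, Txnip, a thioredoxin-binding inhibitor, stood at 7.46, 18.9 and 28.2 TPM, the methionine sulfoxide reductase gene Msrb3 at 49.6, 69.8 and 120 TPM and Selenop, the selenium carrier, at 11.7, 19.2 and 36.8 TPM. For JC-M3 against JC-WT, these 3 passed 2-fold upwards and 0 of the 20 passed it downwards, beside 6.14% and 5.27% of all features.

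Genes of the aryl hydrocarbon receptor and its targets, a receptor that also raises Nqo1, differed among themselves. Of 7 measured, 3 were at least 2-fold lower in JC-M3 than in JC-WT and 0 higher, beside 5.27% and 6.14% of all features. This count is a description only, since Cyp1a1 reached a mean of 1 TPM through JC-WT, the library where it is high. The other lower genes, Ugt1a7c and Ugt1a6b, overlap each other. Ahr, the receptor itself, was lowest in JC-WT and highest in JC-M3, at 4.32, 6.35 and 8.11 TPM. Cyp1a1, the classic target, stood at 5.08, 0.819 and 0.628 TPM, from 76, 15 and 12 reads (log2 -2.08, -3.54 to -1.82, for JC-P against JC-WT), and was highest in JC-WT, as was Nqo1. Tiparp, another target, was highest in JC-M3, at 90.5, 108 and 173 TPM. Ugt1a7c, a glucuronosyltransferase, stood at 9.89, 12.0 and 2.90 TPM, but 53.7% of its windows occur in other genes of the locus. Ugt1a6b, which overlaps it, rested on 15, 29 and 3 reads, and 79.8% of its windows occur in other genes. The 7 other measured conjugating and quinone enzymes all lay within 2-fold in each comparison, among them Nqo2, the relative of Nqo1, at 62.5, 62.9 and 51.8 TPM. Beside them stood 4.76% of all features higher and 2.33% lower for JC-P against JC-WT. The shares were 3.82% and 5.38% for JC-M3 against JC-P and 6.14% and 5.27% for JC-M3 against JC-WT.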
